A study of Mus musculus with 4 samples.

Results

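The genes of the bone morphogenetic protein (BMP) and transforming growth factor beta (TGF-beta) pathways were followed through 4 sorted mouse cell populations. The list holds 39 genes, taken by name as ligands, receptors, antagonists and Id and Smad targets, out of 19938 genes that the array represents alone. It was chosen with earlier results of these data known, so its shares beside those of all genes are descriptions. All 39 were measured, each by 1 transcript cluster (a set of probes that covers a transcript), and the level is the deposited log2 signal. The ESC-derived populations were CORIN+LMX1A::GFP+ and CORIN-LMX1A::GFP+, both sorted on day 9 of neural differentiation from a 129SVEV mouse ESC line with GFP knocked in at Lmx1a. The fetal populations, CORIN+ and CORIN-, came from the ventral midbrain (VM) of C57BL/6N fetuses at E11.5. CORIN is a surface protease of floor plate cells. Both ESC-derived populations were selected for GFP, whereas the fetal cells were selected by CORIN alone. The ESCs were kept on mouse fibroblast feeders before differentiation. FGF8b and SHH were added during it, and the study's methods name no BMP or TGF-beta inhibitor for the mouse cells. How many cultures or fetuses went into an array is not given in the sources used here. Each population has 1 array, so no fold below has a replicate check, an error or a test, and the number of arrays limits the precision. A gene was called when the arrays compared differed at least 2-fold.

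BMPs and TGF-betas are secreted dimers that bring type I and type II receptor kinases together, and the receptors then phosphorylate Smad proteins that enter the nucleus and switch target genes. Secreted antagonists such as Noggin and Chordin trap BMPs outside the cell, and inhibitory Smads and the Id genes are among the targets that BMP signals induce. In the neural tube BMPs come from the roof plate and pattern its dorsal side, opposite to the SHH of the floor plate, while meninges and other mesenchyme around the brain also make them.

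The labels were read against markers on the same arrays. Corin stood at 13.10 in the CORIN+LMX1A::GFP+ array against 11.13 in the CORIN-LMX1A::GFP+ array, and 11.43 in the fetal CORIN+ array against 7.28 in the fetal CORIN- array. The floor plate factor Foxa2 stood at 11.46 in the CORIN+LMX1A::GFP+ array against 11.18 in the CORIN-LMX1A::GFP+ array, and 10.48 in the fetal CORIN+ array against 10.31 in the fetal CORIN- array, so this floor plate gene was also present in both CORIN- populations. Background was estimated from 1035 olfactory receptor clusters, whose 95th percentile lay between 6.84 and 6.96 in the 4 arrays. Of the 39 pathway genes, 37 were above that limit in every array. Gdf5 and Gdf6 were at or below it in all 4 arrays, so that their own folds are not described, although they stay in the counts and medians of the list.

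**Figure D1:**
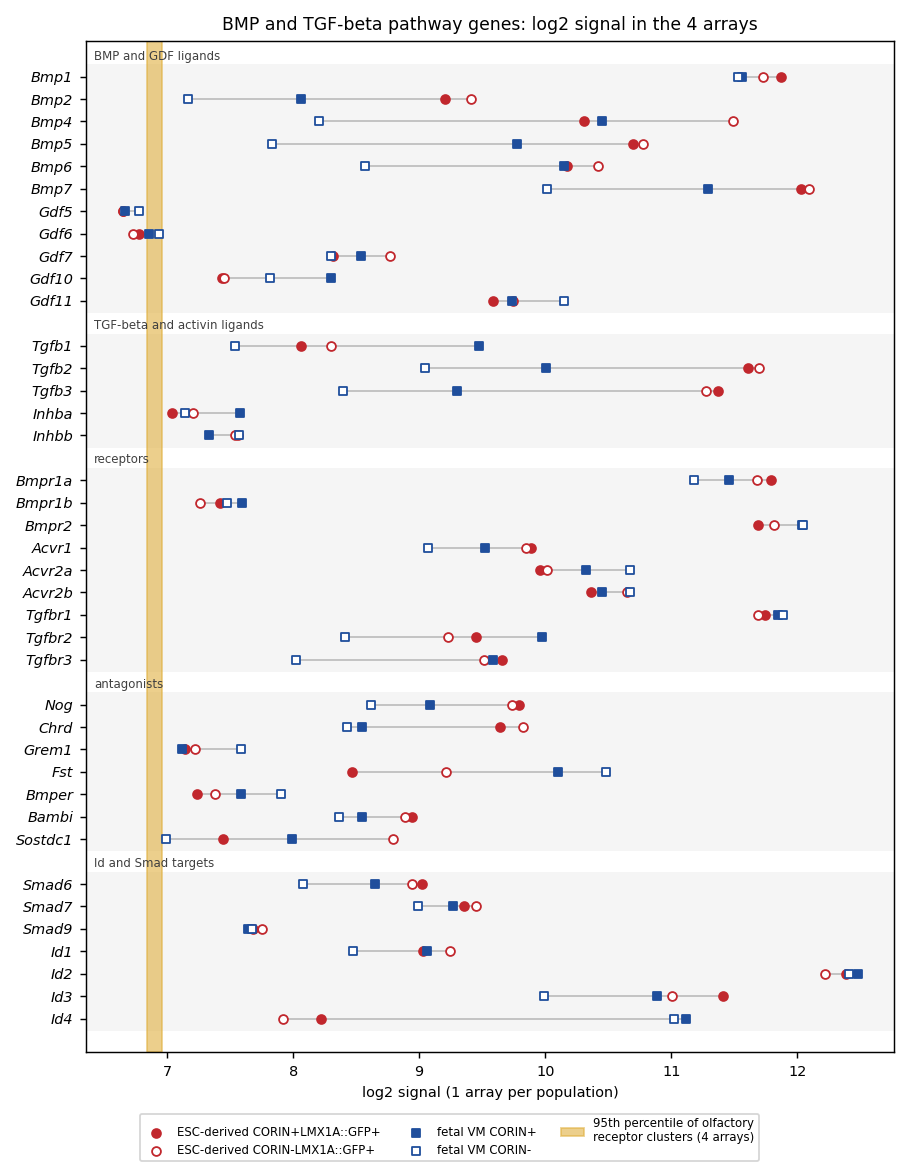
Log2 signal (horizontal axis) of each of the 39 pathway genes in the 4 arrays, in rows grouped by role, with filled symbols for CORIN+ and open symbols for CORIN- populations; the yellow band is the range of the olfactory receptor limit. Signals compare within a row only, since each row has its own probes, and in the rows of Bmp2, Bmp4, Bmp5, Bmp6 and Bmp7 the open square of the fetal CORIN- array lies farthest to the left.

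To show the sequence in front of BMP target genes and of a ligand, the 250 bases before the start site were taken from RefSeq (GRCm38.p6) for 3 Id genes and for Bmp4. Capitals mark GGCGCC, the core of a GC-rich element through which Smads act on BMP targets. The Bmp4 window is shown because Bmp4 had the largest fold of the list in the fetal pair.
Id2 (chr12:25096093-25096342, minus strand): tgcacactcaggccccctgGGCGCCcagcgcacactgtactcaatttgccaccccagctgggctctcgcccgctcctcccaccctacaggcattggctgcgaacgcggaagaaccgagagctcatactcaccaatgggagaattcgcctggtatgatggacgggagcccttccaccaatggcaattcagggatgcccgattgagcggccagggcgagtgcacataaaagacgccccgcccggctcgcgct
Id3 (chr4:136143572-136143821, plus strand): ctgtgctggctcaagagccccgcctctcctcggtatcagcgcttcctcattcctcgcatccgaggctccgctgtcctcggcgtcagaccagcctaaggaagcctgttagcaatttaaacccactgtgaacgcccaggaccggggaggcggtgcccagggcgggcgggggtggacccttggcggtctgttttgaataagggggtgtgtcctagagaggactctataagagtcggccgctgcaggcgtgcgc
Id4 (chr13:48260866-48261115, plus strand): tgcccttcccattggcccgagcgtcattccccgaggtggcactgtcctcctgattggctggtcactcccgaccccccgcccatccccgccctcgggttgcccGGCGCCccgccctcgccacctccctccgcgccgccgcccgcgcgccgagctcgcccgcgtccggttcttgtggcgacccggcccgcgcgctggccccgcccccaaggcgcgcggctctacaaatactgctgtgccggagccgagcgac
Bmp4 (chr14:46390670-46390919, minus strand): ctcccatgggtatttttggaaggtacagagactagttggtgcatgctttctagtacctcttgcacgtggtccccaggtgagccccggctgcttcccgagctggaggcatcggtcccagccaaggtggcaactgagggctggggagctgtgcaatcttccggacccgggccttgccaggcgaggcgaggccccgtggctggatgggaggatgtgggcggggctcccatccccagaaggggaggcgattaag
GGCGCC was searched on both strands and reads the same on each. It stood in the windows of Id2 and Id4 and not in those of Id3 and Bmp4. Promoter windows were matched for 26 of the 39 genes, and 8 of them (30.8%) held GGCGCC, namely Bmpr1a, Bmpr2, Chrd, Grem1, Id2, Id4, Smad9 and Tgfbr1, against 13.9% of 17492 protein-coding genes. The bipartite BMP response element, whose first letters can overlap GGCGCC, and the Smad palindrome GTCTAGAC were in none of the 26, against 0.274% and 0.217% of protein-coding genes. At these shares 26 genes are too few to show a lack of either motif. Id1 was not among the matched genes. Of the genes called in the fetal pair below, the windows of Bmp4, Bmp5, Bmp6, Tgfb1 and Tgfbr2 were matched and none held GGCGCC. A match is a description of letters and not a binding site.

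The first question was how the pathway differed between the CORIN+LMX1A::GFP+ population in culture and its CORIN-LMX1A::GFP+ counterpart. The ligand gene Bmp4 and the antagonist gene Sostdc1 had a lower signal in the CORIN+LMX1A::GFP+ array by more than 2-fold, and the other 37 genes lay under 2-fold. Thus 2 of 39 genes (5.13%) were called lower, against 0.522% of all genes, and 0 of 39 were called higher, against 0.376% of all genes. The median log2 fold was -0.064 over the list and 0.0021 over all genes. At 1.5-fold the antagonist gene Fst joined the lower genes, which made 3 of 39 (7.69%) against 2.32% of all genes, and again no gene was higher, against 1.52% of all genes. The folds of the list ran from -1.35 to 0.40 on the log2 scale, and the spread of all genes (scaled median absolute deviation) was 0.157. An array of sorted cells cannot tell fewer cells of a type from less RNA per cell, here or in the fetal pair.

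In the fetal VM, ligand, receptor and antagonist genes were called, all of them higher in the CORIN+ array. The ligand genes Bmp4, Bmp5, Bmp6, Bmp7 and Tgfb1, the receptor genes Tgfbr2 and Tgfbr3 and the antagonist gene Sostdc1 were at least 2-fold higher there. These are 8 of 39 genes (20.5%), against 3.16% of all genes. None was at least 2-fold lower, against 0.456% of all genes. The median log2 fold was 0.28 over the list and -0.040 over all genes, whose spread was 0.177. The log2 fold was above 0 for 27 of the 39 genes and below 0 for 12, with 40.3% of all genes above 0. At 1.5-fold, Bmp2, Tgfb2, Tgfb3, Id1 and Id3 were added, which made 13 of 39 (33.3%) against 5.92% of all genes, and none was 1.5-fold lower, against 2.80% of all genes. The log2 folds ran from -0.47 (Grem1) to 2.25 (Bmp4).

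**Figure D2:**
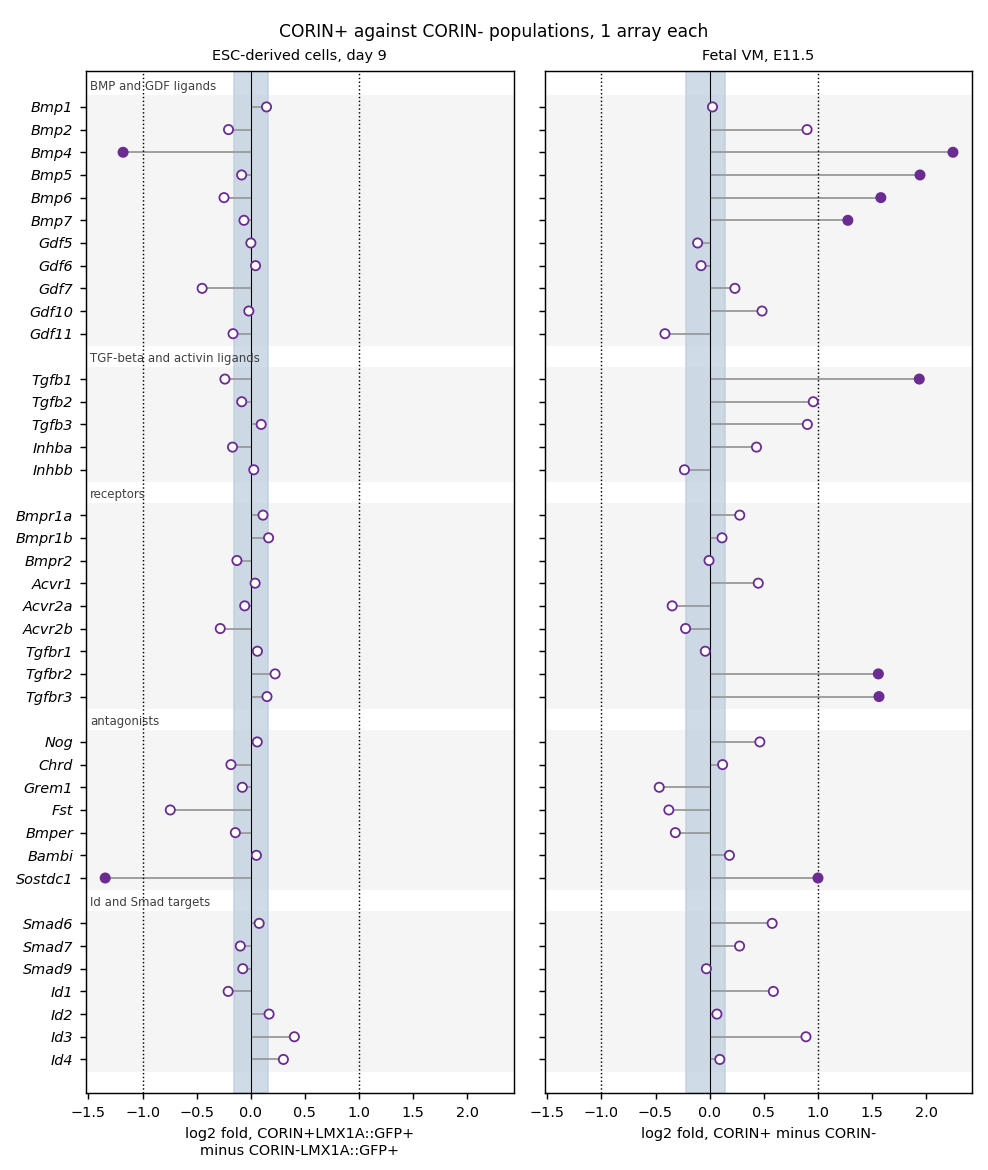
Log2 fold of each pathway gene (horizontal axis), CORIN+LMX1A::GFP+ minus CORIN-LMX1A::GFP+ in ESC-derived cells (left) and CORIN+ minus CORIN- in the fetal VM (right), 1 array per population. Filled circles are at least 2-fold, dotted lines mark 2-fold and the blue band is the median of all genes plus and minus their scaled median absolute deviation; 2 filled circles stand left of 0 in the ESC-derived panel and 8 stand right of 0 in the fetal panel.

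Among the BMP and GDF ligands, Bmp4 had the largest fold in each pair, in opposite directions. Its log2 signal was 10.31 in the CORIN+LMX1A::GFP+ array against 11.49 in the CORIN-LMX1A::GFP+ array, and 10.45 in the fetal CORIN+ array against 8.20 in the fetal CORIN- array. Both CORIN+ arrays thus had nearly the same signal, the CORIN-LMX1A::GFP+ array was above them and the fetal CORIN- array below. The gene was 2.27-fold lower in the CORIN+LMX1A::GFP+ array, at rank 65 from the lowest of 19938 genes, and 4.75-fold higher in the fetal CORIN+ array, at rank 82 from the highest.

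Bmp5, Bmp6 and Bmp7, ligands of another BMP subfamily, were under 1.5-fold between the ESC-derived arrays and were higher in the fetal CORIN+ array. In culture Bmp5 and Bmp7 lay within the spread of all genes (0.157), and Bmp6, with a log2 fold of -0.25, lay beyond it. Bmp5 had a log2 signal of 10.69 in the CORIN+LMX1A::GFP+ array against 10.78 in the CORIN-LMX1A::GFP+ array, and 9.78 in the fetal CORIN+ array against 7.83 in the fetal CORIN- array, a fetal fold of 3.85. Bmp6 had 10.17 in the CORIN+LMX1A::GFP+ array against 10.42 in the CORIN-LMX1A::GFP+ array, and 10.15 in the fetal CORIN+ array against 8.57 in the fetal CORIN- array, a fetal fold of 2.99. For both genes the fetal CORIN- array stood apart below the other 3 arrays. The fetal CORIN- value of Bmp5 lies 0.871 above the background limit. Bmp7 had 12.03 in the CORIN+LMX1A::GFP+ array against 12.09 in the CORIN-LMX1A::GFP+ array, and 11.29 in the fetal CORIN+ array against 10.01 in the fetal CORIN- array, a fetal fold of 2.42, and its order of arrays was that of Bmp5.

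Bmp2, the nearest relative of Bmp4, had 9.20 in the CORIN+LMX1A::GFP+ array against 9.41 in the CORIN-LMX1A::GFP+ array, and 8.06 in the fetal CORIN+ array against 7.16 in the fetal CORIN- array, and its fetal fold was 1.87. The fetal CORIN- value lies 0.201 above the background limit, so that the size of this fold depends on background. Gdf7, a BMP ligand of the roof plate, had 8.32 in the CORIN+LMX1A::GFP+ array against 8.77 in the CORIN-LMX1A::GFP+ array, and 8.54 in the fetal CORIN+ array against 8.30 in the fetal CORIN- array. It lay lower in the CORIN+LMX1A::GFP+ array (log2 fold -0.45) and higher in the fetal CORIN+ array (0.23), under 1.5-fold in each. Gdf10 had a log2 fold of -0.019 in culture and 0.48 in the fetal VM. Gdf11, a ligand of the activin branch that restrains neurogenesis in the mouse olfactory epithelium, had -0.16 in culture and -0.41 in the fetal VM and was thus on the lower side in both. Bmp1 is not a ligand of these receptors but a metalloprotease that cleaves Chordin and procollagens, and its log2 folds were 0.14 in culture and 0.026 in the fetal VM. The median log2 fold of the 11 listed genes was -0.085 in culture and 0.48 in the fetal VM. Without Gdf5 and Gdf6 it was -0.16 in culture and 0.90 in the fetal VM over 9 genes. Without Bmp1 as well it was -0.19 in culture and 1.09 in the fetal VM over 8 genes. Both removals were tried after seeing the data.

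In the TGF-beta branch the fetal pair also showed the larger folds. Tgfb1, a ligand that macrophages and endothelial cells also make, had 8.06 in the CORIN+LMX1A::GFP+ array against 8.30 in the CORIN-LMX1A::GFP+ array, and 9.48 in the fetal CORIN+ array against 7.54 in the fetal CORIN- array, a fetal fold of 3.83. Here the fetal CORIN+ array stood apart, above the other 3. The fetal CORIN- value of Tgfb1 lies 0.578 above the background limit, so that the size of its fetal fold depends on background. Tgfb2 had 11.61 in the CORIN+LMX1A::GFP+ array against 11.70 in the CORIN-LMX1A::GFP+ array, and 10.00 in the fetal CORIN+ array against 9.05 in the fetal CORIN- array, a fetal fold of 1.94. Tgfb3 had 11.37 in the CORIN+LMX1A::GFP+ array against 11.27 in the CORIN-LMX1A::GFP+ array, and 9.30 in the fetal CORIN+ array against 8.40 in the fetal CORIN- array, a fetal fold of 1.87. For Tgfb2 and Tgfb3 both ESC-derived arrays were above both fetal arrays. Inhba and Inhbb encode the beta subunits of activins. Inhba had a log2 fold of -0.17 in culture and 0.43 in the fetal VM, and Inhbb had 0.027 in culture and -0.23 in the fetal VM. Their signals lay within 1 log2 unit of the background limit in every array.

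The 9 receptors differed little in culture, where their log2 folds ran from -0.28 (Acvr2b) to 0.22 (Tgfbr2). In the fetal pair 2 of 9 were called higher, against 3.16% of all genes, both on the TGF-beta side. Tgfbr2, the type II receptor that binds TGF-beta ligands, had 9.45 in the CORIN+LMX1A::GFP+ array against 9.23 in the CORIN-LMX1A::GFP+ array, and 9.97 in the fetal CORIN+ array against 8.42 in the fetal CORIN- array, a fetal fold of 2.95. Tgfbr3 (betaglycan), a co-receptor that presents TGF-beta ligands and binds inhibin, had 9.66 in the CORIN+LMX1A::GFP+ array against 9.51 in the CORIN-LMX1A::GFP+ array, and 9.59 in the fetal CORIN+ array against 8.02 in the fetal CORIN- array, a fetal fold of 2.96. For Tgfbr3 the fetal CORIN- array was below the other 3, which were nearly level. The type I TGF-beta receptor Tgfbr1 did not follow, with log2 folds of 0.061 in culture and -0.040 in the fetal VM. The BMP receptors were under 1.5-fold in both pairs. In the fetal VM the log2 fold was 0.28 for the type I receptor Bmpr1a, 0.11 for Bmpr1b, -0.0057 for the type II receptor Bmpr2 and 0.45 for the type I receptor Acvr1. The type II receptors Acvr2a and Acvr2b, which activins share with BMPs, had -0.35 and -0.22.

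The 7 antagonists did not share a direction. Sostdc1, a secreted antagonist of BMP and Wnt signals, had 7.44 in the CORIN+LMX1A::GFP+ array against 8.79 in the CORIN-LMX1A::GFP+ array, and 7.99 in the fetal CORIN+ array against 6.99 in the fetal CORIN- array. It was 2.54-fold lower in the CORIN+LMX1A::GFP+ array, at rank 42 from the lowest. In the fetal CORIN+ array it was 2.001-fold higher, at rank 630, and was the last gene inside the 2-fold limit. Its fetal CORIN- value was 0.030 above the background limit, and with 32 added to each linear signal the gene no longer reached 2-fold in the fetal pair. Fst (follistatin), which traps activins, had 8.46 in the CORIN+LMX1A::GFP+ array against 9.21 in the CORIN-LMX1A::GFP+ array, and 10.10 in the fetal CORIN+ array against 10.48 in the fetal CORIN- array. It was on the lower side in both CORIN+ arrays, 1.68-fold in culture and 1.3-fold in the fetal VM, and both fetal arrays were above both ESC-derived arrays.

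The BMP traps Nog and Chrd, both made by the node and notochord, were under 1.5-fold between CORIN+ and CORIN- cells. Nog had a log2 fold of 0.059 in culture and 0.46 in the fetal VM, and Chrd had -0.18 in culture and 0.12 in the fetal VM. Grem1, another BMP trap, had -0.079 in culture and -0.47 in the fetal VM. Bmper, a BMP-binding protein related to Chordin, had -0.14 in culture and -0.32 in the fetal VM. The pseudoreceptor gene Bambi, which is itself induced by BMP, had 0.051 in culture and 0.18 in the fetal VM.

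Among the listed Id and Smad targets, Id2, Id3, Id4 and Smad6 were on the higher side in both CORIN+ arrays. Of these, Id3 had the largest fold in each pair. Id proteins lack a DNA-binding region and hold back neuronal bHLH factors. Id3 had 11.41 in the CORIN+LMX1A::GFP+ array against 11.01 in the CORIN-LMX1A::GFP+ array, and 10.88 in the fetal CORIN+ array against 9.99 in the fetal CORIN- array, which is 1.32-fold higher in the CORIN+LMX1A::GFP+ array and 1.85-fold higher in the fetal CORIN+ array. Id1 had 9.03 in the CORIN+LMX1A::GFP+ array against 9.24 in the CORIN-LMX1A::GFP+ array, and 9.06 in the fetal CORIN+ array against 8.47 in the fetal CORIN- array, so that it was 1.16-fold lower in the CORIN+LMX1A::GFP+ array and 1.504-fold higher in the fetal CORIN+ array. Id2 had log2 folds of 0.17 in culture and 0.067 in the fetal VM and was nearly level over the 4 arrays.
Id4 had 8.22 in the CORIN+LMX1A::GFP+ array against 7.92 in the CORIN-LMX1A::GFP+ array, and 11.11 in the fetal CORIN+ array against 11.02 in the fetal CORIN- array. Its log2 fold by CORIN was 0.30 in culture and 0.094 in the fetal VM, and both fetal arrays were far above both ESC-derived arrays. Smad6, an inhibitory Smad of the BMP branch, had a log2 fold of 0.077 in culture and 0.58 in the fetal VM, where it was 1.49-fold higher and just under the 1.5-fold limit. Smad7, the inhibitory Smad of both branches, had -0.10 in culture and 0.28 in the fetal VM, and Smad9, a signalling Smad of the BMP branch, had -0.075 and -0.030. Of these 7 target genes 0 reached 2-fold in either pair. In the fetal pair, where 3.16% of all genes were called higher and 40.3% had a log2 fold above 0, 6 of the 7 were above 0, Id2 and Id4 by less than the spread of all genes.

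Markers of several other cell types moved with the fetal folds, and with Bmp4 and Sostdc1 in culture. In the fetal pair 3.16% of all genes were called higher and 0.456% lower. There 9 of 10 macrophage markers and 9 of 10 mesenchyme and meninges markers were at least 2-fold higher in the CORIN+ array. The same held for 4 of 7 erythroid and 2 of 8 endothelial markers. The log2 of the summed macrophage signal was 13.77 in the fetal CORIN+ array and 10.14 in the fetal CORIN- array, and that of the mesenchyme list was 14.41 in the fetal CORIN+ array and 12.42 in the fetal CORIN- array. Roof plate markers, among which Wnt1 and Lmx1b are also genes of the VM, had a median log2 fold of 0.81 with 2 of 8 called higher. Floor plate markers had a median of 0.64 with 3 of 8 called higher, Corin included, and neuron markers a median of -0.52 with 0 of 8 called.
In culture, where 0.376% of all genes were called higher and 0.522% lower, 0 of 10 macrophage markers were called. Of these 10, 8 were at or below the background limit in both arrays. Mesenchyme markers had a median log2 fold of -0.73, with 2 of 10 called lower and a summed log2 signal of 12.40 in the CORIN+LMX1A::GFP+ array and 13.03 in the CORIN-LMX1A::GFP+ array. Pluripotency markers had a median of -1.85 with 6 of 8 called lower, roof plate markers -0.82 with 2 of 8, endothelial markers -0.65 with 2 of 8 and neuron markers -0.63 with 2 of 8. Floor plate markers went the other way, with a median of 0.54, 8 of 8 above 0 and 2 of 8 called higher, Corin included. The part of these cell types in the folds of the pathway genes was not tested.

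**Figure D3:**
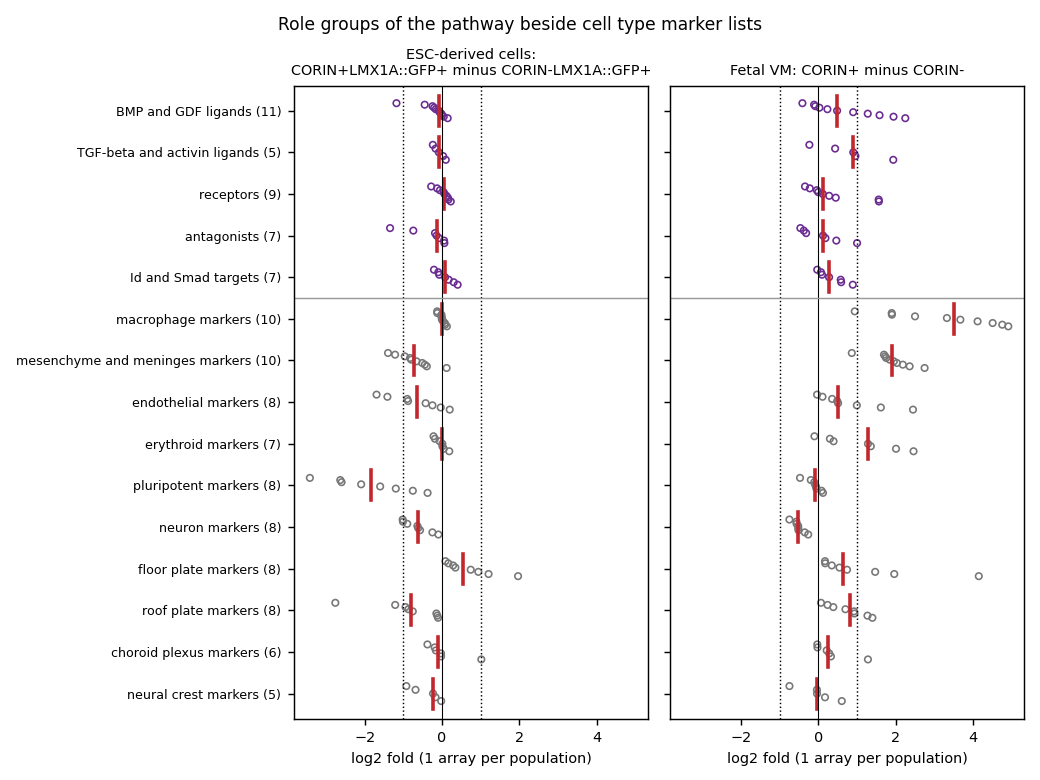
Log2 folds (horizontal axis) of the 5 role groups of the pathway (purple circles) beside 10 cell type marker lists (grey circles), CORIN+LMX1A::GFP+ minus CORIN-LMX1A::GFP+ in ESC-derived cells (left) and CORIN+ minus CORIN- in the fetal VM (right), with the number of measured genes in parentheses, red bars for medians and dotted lines at 2-fold. All 11 listed BMP and GDF genes, Gdf5, Gdf6 and the protease gene Bmp1 included, have a median of -0.085 on the left and 0.48 on the right, and the mesenchyme markers have -0.73 on the left and 1.90 on the right.

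Further genes of the pathway were read from a list of 63, of which 59 were measured. In culture 1 of 59 was called higher, against 0.376% of all genes, and 1 lower, against 0.522% of all genes. Hey1, a transcriptional repressor downstream of Notch and BMP, was 2.14-fold higher in the CORIN+LMX1A::GFP+ array and 1.63-fold higher in the fetal CORIN+ array, with 11.93 in the CORIN+LMX1A::GFP+ array against 10.83 in the CORIN-LMX1A::GFP+ array, and 11.62 in the fetal CORIN+ array against 10.92 in the fetal CORIN- array. Tdgf1 (Cripto), the co-receptor of Nodal and also a gene of the pluripotency list, was at least 4.11-fold lower in the CORIN+LMX1A::GFP+ array. There its log2 signal of 6.78 was under the background limit, against 8.88 in the CORIN-LMX1A::GFP+ array.
In the fetal pair 5 of 59 genes were called higher, against 3.16% of all genes, and 0 lower, against 0.456% of all genes. The homeobox genes Msx2 and Msx1 are induced by BMPs. Msx2 had 10.25 in the CORIN+LMX1A::GFP+ array against 9.52 in the CORIN-LMX1A::GFP+ array, and 9.70 in the fetal CORIN+ array against 7.41 in the fetal CORIN- array, and was 1.66-fold higher in culture and 4.91-fold higher in the fetal VM. Msx1 had 9.20 in the CORIN+LMX1A::GFP+ array against 8.76 in the CORIN-LMX1A::GFP+ array, and 9.84 in the fetal CORIN+ array against 8.21 in the fetal CORIN- array, 1.35-fold higher in culture and 3.11-fold higher in the fetal VM. Both Msx genes were thus on the higher side in both CORIN+ arrays, and whether BMP signals account for this was not tested. The fetal CORIN- value of Msx2 lies 0.446 above the background limit, so that the size of its fetal fold depends on background. Tgfbi, a matrix protein that TGF-beta induces, was 4.28-fold higher in the fetal CORIN+ array and had a log2 fold of -0.69 in culture. Eng (endoglin), a TGF-beta co-receptor of endothelial cells, was 2.82-fold higher in the fetal CORIN+ array and had a log2 fold of -0.77 in culture. Nbl1 (DAN), a secreted BMP antagonist, was 1.59-fold higher in culture and 3.26-fold higher in the fetal VM. The median log2 fold over the 59 genes was 0.0072 in culture and 0.012 in the fetal VM.

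Set against the fetal cells, the ESC-derived cells differed in several ligands, antagonists and Id4. These values use the same 4 arrays as the folds above and are not independent of them, and culture, strain, stage and the way of sorting cannot be told apart. Cell type markers differed as well. In the ESC-derived CORIN+ population 9 of 10 macrophage, 8 of 10 mesenchyme, 4 of 7 erythroid, 6 of 8 neuron and 5 of 8 roof plate markers were at least 2-fold lower than in the fetal one, and 5 of 8 floor plate and 2 of 8 roof plate markers were higher. In the ESC-derived CORIN- population 6 of 8 neuron and 3 of 7 erythroid markers were lower than in the fetal one. There 6 of 8 floor plate, 5 of 8 pluripotency and 3 of 10 mesenchyme markers were higher. Of its roof plate markers 2 of 8 were higher and 1 lower. In both comparisons 2 of 6 choroid plexus markers were higher and 2 of 5 neural crest markers lower in the ESC-derived population. Of the endothelial markers, 2 of 8 were lower between the CORIN+ populations and 1 of 8 was higher between the CORIN- populations. Over all genes, 4.37% were at least 2-fold lower and 2.98% higher between the CORIN+ populations, and 3.52% lower and 4.54% higher between the CORIN- populations. The part of these cell types in the differences below was not tested. Between the CORIN+ populations, 4 of 39 genes were at least 2-fold higher in ESC-derived cells, against 2.98% of all genes, and 3 were as much lower, against 4.37% of all genes. The higher genes were Tgfb3 (4.19-fold), Tgfb2 (3.05-fold), Bmp2 (2.21-fold) and Chrd (2.13-fold). The lower genes were Id4 (7.44-fold), Fst (3.11-fold) and Tgfb1 (2.66-fold). At 1.5-fold 7 genes were higher, against 7.88% of all genes, and 4 lower, against 8.08% of all genes.
Between the CORIN- populations more genes were called. There 12 of 39 genes were at least 2-fold higher in ESC-derived cells, against 4.54% of all genes, and 2 were as much lower, against 3.52% of all genes. Bmp4 was 9.74-fold higher, Bmp5 7.7-fold, Tgfb3 7.33-fold, Tgfb2 6.28-fold, Bmp2 4.75-fold and Bmp7 4.23-fold. Bmp6, Sostdc1, Tgfbr3, Chrd, Nog and Id3 followed, with folds from 2.02 (Id3) to 3.61 (Bmp6). Id4 was 8.59-fold lower and Fst 2.41-fold lower. At 1.5-fold 17 genes were higher, against 10.4% of all genes, and 3 lower, against 7.18% of all genes.
The BMP ligands called in the fetal pair were under 2-fold between the CORIN+ populations, with log2 differences of -0.14 for Bmp4, 0.92 for Bmp5, 0.024 for Bmp6 and 0.74 for Bmp7. Over the 39 genes the median log2 difference was -0.021 between the CORIN+ populations, against 0.022 over all genes, and 0.47 between the CORIN- populations, against -0.015 over all genes.

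**Figure D4:**
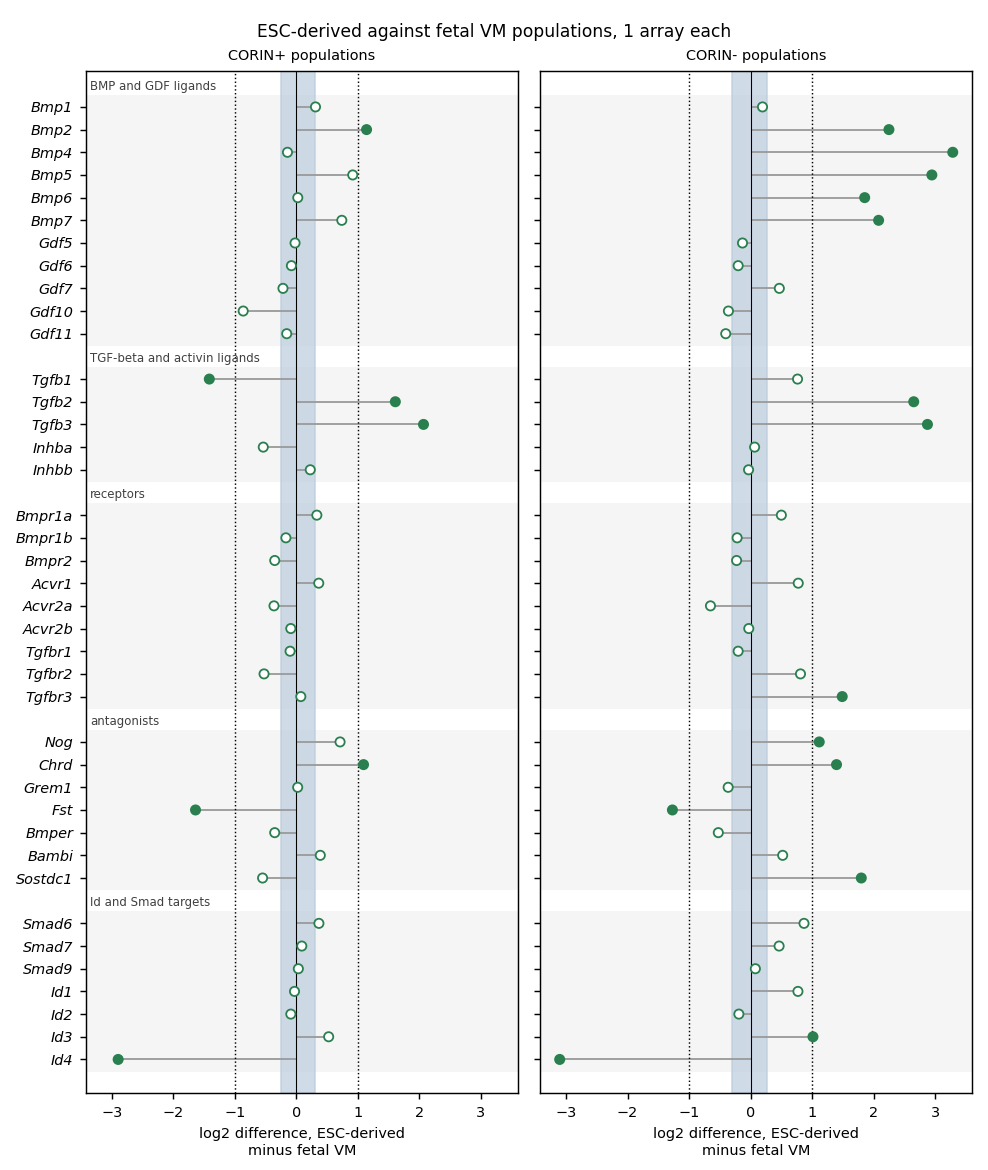
Log2 difference of each pathway gene (horizontal axis), ESC-derived minus fetal VM, between the CORIN+ populations (left) and between the CORIN- populations (right), 1 array per population; filled circles are at least 2-fold, dotted lines mark 2-fold and the blue band is the median of all genes plus and minus their scaled median absolute deviation. Id4 lies far to the left in both panels (-2.90 and -3.10), and Bmp4 lies at -0.14 in the left panel and 3.28 in the right panel.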

How the data were processed

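RNA from each sorted population was made into labelled cDNA with an Ambion kit and read on 1 Affymetrix gene array. The authors deposited a table of log2 signals, with a value in each of the 4 arrays for 28856 transcript clusters, and name GeneSpring for the analysis. How probes were summarized and arrays normalized, and on which genome build, is not given in the sources used here. The array annotation gives 21789 clusters 1 symbol, 1621 several and 5446 none, and 21698 symbols were brought up to date (GRCm38.p6 names).

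A gene was taken as its single-symbol cluster with the highest mean signal. Folds were differences of log2 signals, a gene was called at 2-fold, and no test was made. Genes at least 1.5-fold apart in either CORIN comparison were given with all 4 signals, and further pathway genes were named at 2-fold. The members and lists were chosen with earlier results of these data known. The alternatives were quantile normalization, median centring, 32 added to the linear signal, the olfactory receptor limit as a filter, other choices of cluster, and thresholds of 1.5-fold and 3-fold. Counting was tested on simulated arrays. Python 3.11.15, numpy 2.4.6, pandas 2.3.3 and matplotlib 3.10.9 were used.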

Additional observations from a re-analysis of the deposited data

Results flagged for a closer look

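Bmp4 and Sostdc1 were called in opposite directions, lower in the CORIN+LMX1A::GFP+ array in culture and higher in the CORIN+ array of the fetal VM. The log2 fold in culture minus that in the fetal VM was -3.43 for Bmp4 and -2.35 for Sostdc1. The fetal call of Sostdc1 was marginal, at 2.001-fold, with a fetal CORIN- value 0.030 above the background limit. It was lost with 32 added to each linear signal, while that of Bmp4 was kept. The difference was not tested, since each population has 1 array. No other gene of the 39, and none of the 59 further pathway genes, was called in opposite directions.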

How the results depend on the processing

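Of the 8 genes called higher in the fetal pair, 8 were called after quantile normalization, after median centring and among genes above the background limit, and 7 with 32 added to each linear signal, where Sostdc1 was lost. At 1.5-fold and 3-fold the fetal count was 13 and 3, with Bmp4, Bmp5 and Tgfb1 past 3-fold, and the 2 genes called lower in the ESC-derived pair became 0 at 3-fold. The ESC-derived and fetal populations differed in 7 genes for CORIN+, 11 at 1.5-fold and 4 at 3-fold, and in 14 for CORIN-, 9 at 3-fold. The share of all genes past 3-fold was not counted, so the 3-fold counts cannot be read against it. These alternatives for ESC-derived against fetal cells were chosen after seeing the data. The median log2 fold lay between -0.075 and -0.040 in the ESC-derived pair and between 0.236 and 0.317 in the fetal pair. The fetal median of the 11 listed BMP and GDF genes, 0.48, became 0.90 without Gdf5 and Gdf6, and 1.09 without Bmp1 as well, which was also tried after seeing the data. Each gene of the list has 1 cluster, so both other choices of cluster return the same values. Of the 39 genes, 13 had a signal within 1 log2 unit of the background limit in at least 1 array, and their folds may be understated. Bmp5, Tgfb1, Grem1, Bmper and Bmpr1b are among these 13. No paired analysis was possible because each population has 1 array and the labels give no replicate numbers.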

Other observations

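Choroid plexus markers had a median log2 fold of -0.096 in culture and 0.25 in the fetal VM, with 1 of 6 called higher in each. Over all genes 0.376% were called higher and 0.522% lower in culture, and 3.16% and 0.456% in the fetal VM. The called marker was Folr1 in both pairs, 2.02-fold higher in culture and 2.43-fold in the fetal VM. The study lists Folr1 among its candidate surface markers of midbrain dopaminergic progenitors. It drew these candidates from the same arrays, so the calls here are not independent of that list. By the study's RT-PCR, Lrtm1 alone among the candidates was specific to the VM at E11.5. The other 5 choroid plexus markers were under 2-fold in both pairs. Neural crest markers had a median of -0.24 in culture and -0.036 in the fetal VM, with 0 of 5 called in either.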
